A study of Macaca mulatta with 8 samples.

Results

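FIGLA, SOHLH1, SOHLH2, NOBOX and LHX8 are transcription factors of the germ line that switch on the gene programme of the oocyte. Their probe sets were taken from the array's value table by gene symbol, wherever the platform annotation listed that symbol alone. This gave 6 probe sets for the 5 genes, among 24956 probe sets with 1 gene symbol for 14132 genes and 52766 probe sets in all without controls. SOHLH2 had 2 probe sets and each other factor had 1.

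Rhesus macaque oocytes at metaphase II, ready for fertilization, were profiled in the series. The first group (in vitro) held 4 arrays of oocytes matured in culture, and the second (in vivo) held 4 arrays of oocytes that reached this stage in the animal. Amplified RNA from 4 pooled oocytes was put on each array. The arrays of a group are labelled biological replicates with no word on the donor animals, and the p-values cover only the spread from pool to pool. No genotype, treatment or age is given for either group in the sources used here. In a pool, a lower level in every oocyte cannot be told apart from a lower level in some of them, nor fewer cells of a type from less RNA per cell.

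In the mouse ovary, SOHLH1 and SOHLH2 are basic helix-loop-helix (bHLH) proteins that act early in germ cells and are needed for the expression of Lhx8 and Nobox. LHX8 is a LIM homeodomain protein and NOBOX is a homeodomain protein of the same young follicles. FIGLA is a bHLH protein that pairs with an E protein and activates the zona pellucida genes. Female mice that lack any of these factors lose their oocytes early and are infertile. A mature oocyte makes little new RNA, so its transcripts are mostly a store laid down during growth.

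The question of the comparison was which of these transcripts differ by the place of maturation. Values are MAS5 signals, a background-subtracted brightness per probe set on a linear scale. As the background of an array served the 95th percentile of its 59 probe sets for unspiked control transcripts, which lay between 19.6 and 23.8 in vitro and between 15.7 and 27.0 in vivo. FIGLA, LHX8 and the brighter SOHLH2 probe set were above it on all 8 arrays. SOHLH1 and NOBOX lay close to it. Of the 5 probe sets tested, 0 reached a limma adjusted p of 0.05. LHX8 and SOHLH1 had an unadjusted p under 0.05. Testing was limited to probe sets with a mean signal above 26.0 over all arrays, and SOHLH1 (through in vivo) and NOBOX (through in vitro) passed this filter through 1 group alone, so no count over the tested factors is read as support for a difference. The groups overlapped in all 6. Over all 26378 tested probe sets, 0.148% passed the adjusted threshold, 10.3% had an unadjusted p under 0.05 and 6.33% had groups that did not overlap.

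**Figure D1:**
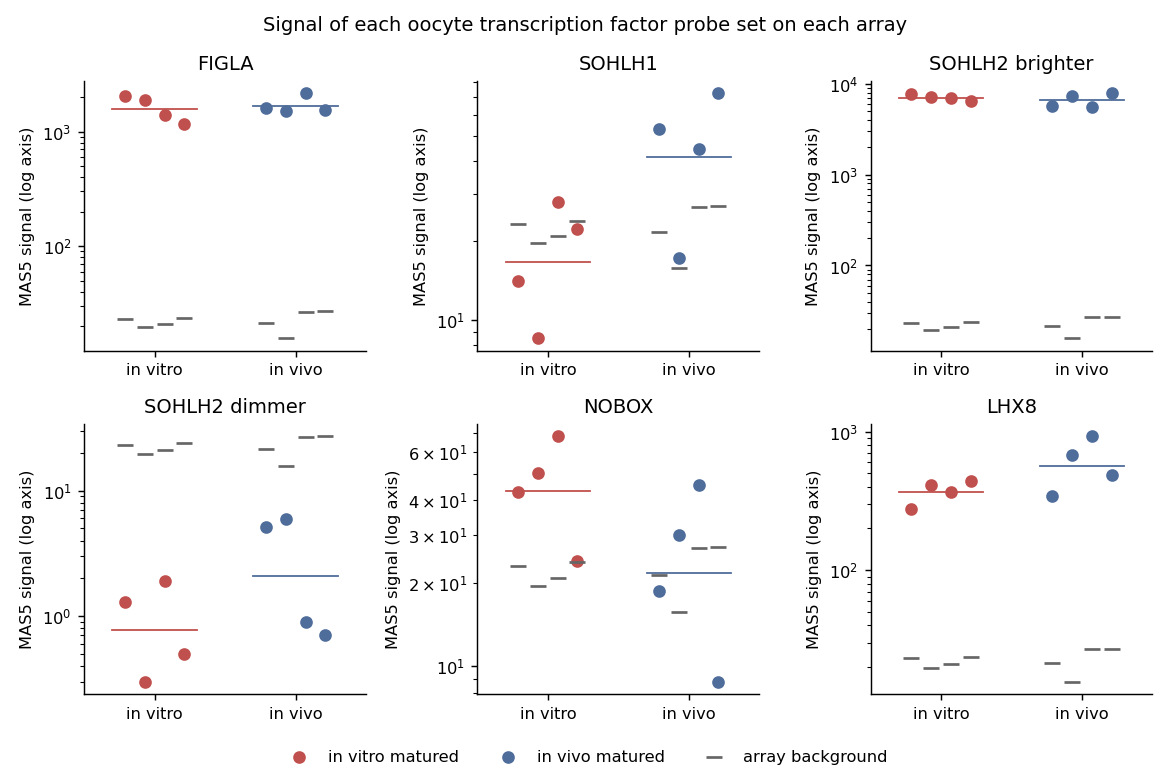
MAS5 signal (log axis) of the 6 probe sets on the 4 in vitro and 4 in vivo arrays, with lines at the geometric mean of each group and grey ticks at the background of each array. FIGLA, the brighter SOHLH2 probe set and LHX8 lie far above background on every array, SOHLH1 and NOBOX lie around it, and the dimmer SOHLH2 probe set lies below it throughout.

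Oocytes of both groups held abundant FIGLA transcripts. FIGLA (probe set MmugDNA.27793.1.S1_at) had signals of 2032, 1879, 1395 and 1154 in vitro, against 1601, 1496, 2154 and 1554 in vivo. The ranges overlapped, with in vivo replicate 3 above every in vitro array and 2 in vitro arrays below every in vivo array. The lowest signal was 48.5 times the background of its array in vitro and 57.5 times in vivo. The means were 1615 ± 410 in vitro and 1701 ± 305 in vivo (SD, n = 4 each).

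The log2 fold change of FIGLA, in vitro minus in vivo on the log2(signal + 8.2) scale, was -0.09 ± 0.21 (SE, limma adjusted p = 0.910). Its 95% interval ran from -0.54 to 0.35, which are folds of 0.689 and 1.27. The sign of this small value was positive without in vitro replicate 4 (0.05) and without in vivo replicate 3 (0.02). The SD of the log2 values was 0.38 in vitro and 0.24 in vivo, and the median SD of 1323 tested probe sets within 0.5 log2 units of its mean was 0.18 in vitro and 0.30 in vivo.

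SOHLH1, the bHLH factor at the start of the mouse cascade, was dim in both groups. Its signals (probe set MmugDNA.2218.1.S1_at) were 14.1, 8.5, 28.0 and 22.2 in vitro, against 53.1, 17.2, 44.7 and 72.5 in vivo. It was above background on 1 of 4 arrays in vitro and on 4 of 4 in vivo, where the signal was 1.10 to 2.68 times the background. In vivo replicate 2 lay among the in vitro arrays, and the other 3 in vivo arrays lay above all of them.

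The mean SOHLH1 signal was 18.2 ± 8.62 in vitro, below the filter of 26.0, and 46.9 ± 23.0 in vivo (SD, n = 4 each). The probe set was therefore tested only through the in vivo arrays, and a low in vitro value came with that choice. With 3 of 4 in vitro arrays not above background, no fold on the linear scale is given, and the log2 values below are not read as the size of a difference. The fitted log2 fold change was -1.0 ± 0.45 (SE), a description of these signals. Its 95% interval ran from -1.97 to -0.04, and it did not pass (limma adjusted p = 0.468, unadjusted p = 0.0432). With the pseudocount of 1 the log2 fold change was -1.27, and with the median signal of 27.7 it was -0.66, since values this close to background depend on what is added before the log. With 1 array left out it ran from -1.34 (without in vivo replicate 2, limma adjusted p = 0.358) to -0.78 (without in vivo replicate 4, limma adjusted p = 0.531).

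SOHLH2 RNA was bright at one probe set and not above background at the other. The brighter probe set (MmugDNA.29988.1.S1_at) had signals of 7719, 7115, 6959 and 6552 in vitro, against 5669.7, 7425, 5635 and 7879 in vivo. These were 275 to 364 times the array background in vitro and 210 to 474 times in vivo. In vivo replicates 1 and 3 lay below every in vitro array and in vivo replicate 4 lay above every in vitro array.

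Its mean was 7086 ± 484 in vitro and 6652 ± 1169 in vivo (SD, n = 4 each), and the log2 fold change was 0.11 ± 0.16 (SE, limma adjusted p = 0.859). The 95% interval of -0.23 to 0.44 corresponds to folds of 0.852 and 1.36. This is the narrowest interval among the 5 tested probe sets. The coefficient of variation was 6.83% in vitro and 17.6% in vivo.

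The dimmer SOHLH2 probe set (MmugDNA.19527.1.S1_s_at) had signals of 1.3, 0.3, 1.9 and 0.5 in vitro, against 5.1, 5.9, 0.9 and 0.7 in vivo. It was not above background on any of the 8 arrays and was too dim to be tested, so no fold is given. The suffix of its name marks, in this manufacturer's scheme, probes that match several transcripts. The probe sets therefore disagree on whether SOHLH2 RNA was detected, and where each lies on the transcript was not analysed here.

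Within each group the brighter SOHLH2 signal had the same order as a control transcript added at hybridisation. FIGLA had that order in vitro too, but not in vivo. With 4 arrays per group, such an order is a description of these arrays. The 3' probe set of the spiked-in cre control read 12535, 11537, 11479 and 7647 in vitro, against 8539, 13019.7, 7428 and 22324 in vivo. In vivo replicates 2 and 4, which had the higher SOHLH2 signals of their group, also had the lowest ratios of 5' to 3' signal of the EEF1A1 control, at 0.130 and 0.0779. The ratios of in vivo replicates 1 and 3 were 0.370 and 0.368, and those of the in vitro arrays lay between 0.204 and 0.279. With quantile normalization the log2 fold change of SOHLH2 was 0.04 and its SE was 0.09. The part of array brightness and amplification in the SOHLH2 values was not tested.

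**Figure D2:**
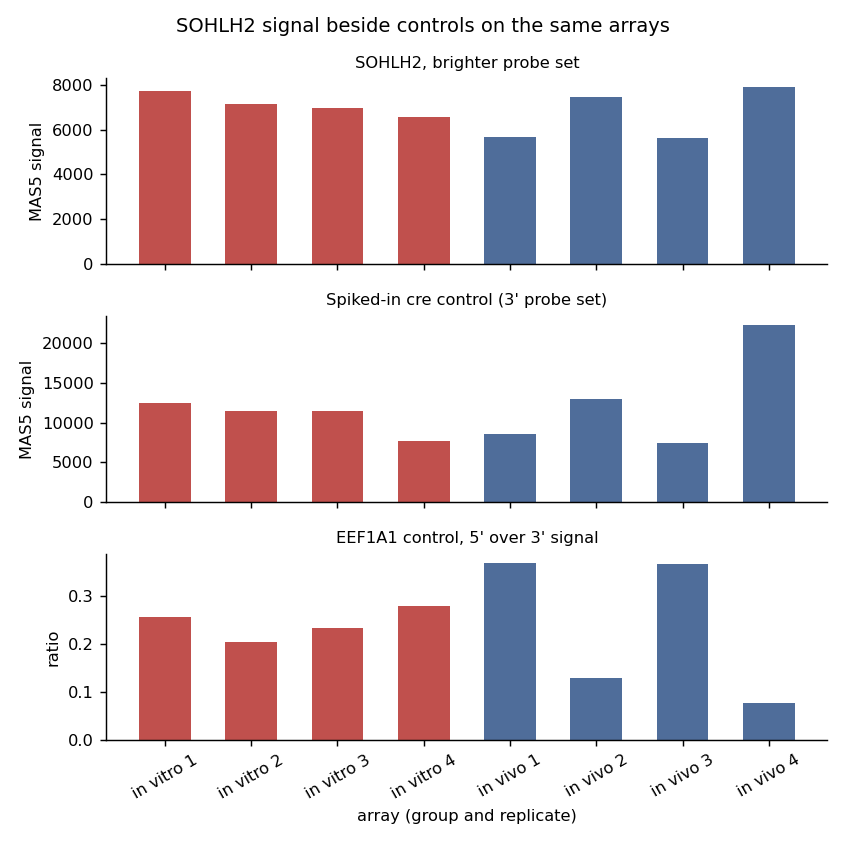
Signal of the brighter SOHLH2 probe set, signal of the spiked-in cre control and the 5' to 3' ratio of the EEF1A1 control, one bar per array, with the in vitro arrays left of the in vivo arrays. Within each group the order of the SOHLH2 bars is that of the cre control, and in vivo replicates 2 and 4 have high SOHLH2 signals and EEF1A1 ratios of 0.130 and 0.0779.

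NOBOX, the homeodomain factor that in mice activates Gdf9 and Pou5f1, was also dim. Its signals (probe set MmugDNA.41820.1.S1_at) were 42.7, 50.2, 68.1 and 24.0 in vitro, against 18.7, 29.9, 45.4 and 8.8 in vivo. It was above background on 4 of 4 arrays in vitro, where replicate 4 exceeded it by a factor of 1.01, and on 2 of 4 in vivo. In vitro replicates 2 and 3 lay above every in vivo array, and in vivo replicates 1 and 4 lay below every in vitro array.

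The NOBOX mean was 46.2 ± 18.3 in vitro and 25.7 ± 15.7 in vivo (SD, n = 4 each). The in vivo mean lay just under the filter of 26.0, which the probe set passed through the in vitro arrays. The log2 fold change was 0.74 ± 0.44 (SE, limma adjusted p = 0.591, unadjusted p = 0.110), and its 95% interval ran from -0.19 to 1.67. The lowest array, in vivo replicate 4, was the one with the EEF1A1 ratio of 0.0779. The next lowest, in vivo replicate 1 with a signal of 18.7, had a ratio of 0.370. Without in vivo replicate 4 the log2 fold change was 0.45, and without in vivo replicate 3 it was 1.0. The part of amplification in the NOBOX values was not tested.

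LHX8, the LIM homeodomain factor, was above background on every array, and its difference between the groups did not pass the adjusted threshold. Its signals (probe set MmugDNA.14862.1.S1_at) were 276, 412, 365 and 443 in vitro, against 343, 674, 921 and 489 in vivo. In vivo replicates 2, 3 and 4 lay above every in vitro array, and in vivo replicate 1 lay among the in vitro arrays. The signal was 11.9 to 21.1 times the array background in vitro and 16.0 to 43.0 times in vivo.

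The LHX8 fold, in vitro over in vivo, was 0.652, with a 95% interval of 0.434 to 0.981. The log2 fold change was -0.62 ± 0.28 (SE, limma adjusted p = 0.461, unadjusted p = 0.0415). In vivo replicates 1 and 3 had nearly equal EEF1A1 ratios (0.370 and 0.368) and the lowest and highest LHX8 signals of their group. The part of amplification in the LHX8 values was not tested. With 1 array left out, the log2 fold change ran from -0.85 without in vivo replicate 1 (limma adjusted p = 0.225) to -0.39 without in vivo replicate 3 (limma adjusted p = 0.707). The in vivo log2 values had an SD of 0.60, against a median of 0.35 in vivo for 2512 tested probe sets of similar brightness. The in vitro SD of 0.29 compares with 0.23 for the same probe sets.

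**Figure D3:**
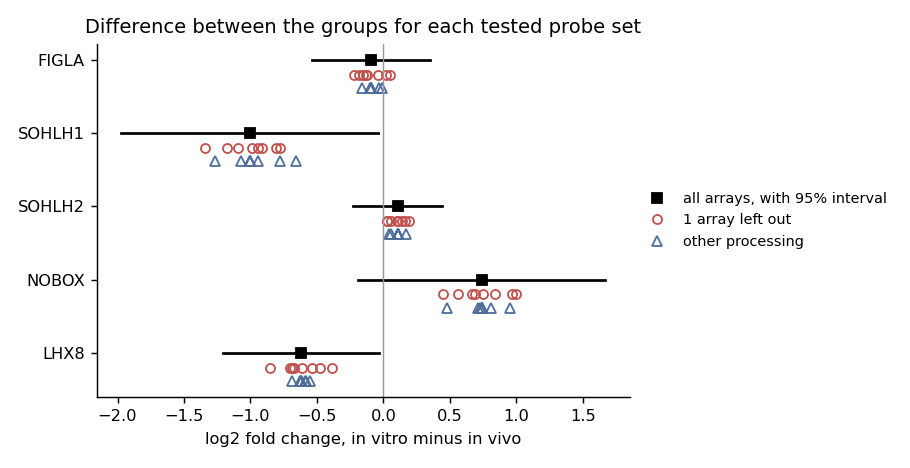
Log2 fold change, in vitro minus in vivo, of the 5 tested probe sets, with the 95% interval (line), the values with 1 array left out (circles) and the values under other processing (triangles). The interval of LHX8 ends at -0.03 and those of FIGLA, SOHLH2 and NOBOX span 0. SOHLH1, whose interval ends at -0.04, and NOBOX passed the filter on low signals through 1 group alone.

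Under all alternatives that tested them, SOHLH1 and LHX8 had negative values, and NOBOX and the brighter SOHLH2 probe set had positive ones. The alternatives reuse the same 8 arrays, and SOHLH1 and NOBOX passed the main filter through 1 group alone. A constant sign is therefore not read as support for a difference. None of the 5 passed under any of the 18 alternatives, and the lowest limma adjusted p was 0.823 for FIGLA, 0.569 for SOHLH2, 0.536 for NOBOX, 0.358 for SOHLH1 and 0.225 for LHX8. SOHLH1 and NOBOX were below the upper-quarter filter and could not be tested there.

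Transcripts whose signals followed those of a factor across arrays were named by the highest Pearson correlation of log2 values over the 8 arrays, among 15139 tested and named probe sets. For FIGLA these were MFSD8 (r = 0.969) and FNDC4 (0.956). For SOHLH1 they were FBXO28 (0.980) and PDE3B (0.968), for NOBOX ZKSCAN3 (0.969) and HNRNPH1 (0.960), for SOHLH2 EIF5B (0.984) and FURIN (0.973), and for LHX8 SMARCA2 (0.990) and HSBP1 (0.977). For SOHLH2 there were 113 named probe sets with r above 0.9 and for LHX8 there were 98, against 15 for FIGLA, 24 for SOHLH1 and 19 for NOBOX. These correlations share the same 8 arrays, their brightness and their amplification, and are descriptions of these arrays.

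FIGLA binds DNA as a pair with an E protein, and ID proteins block such pairs by capturing the E protein. In mice, SOHLH1 and SOHLH2 pair with themselves and with each other. LHX8 works with LIM cofactors of the LDB family. Genes of the SSBP and LMO families were listed with these. Of 11 tested genes of this group, 0 rose and 0 fell, 2 had an unadjusted p under 0.05, and the median log2 fold change was -0.08 (-0.12 to 0.08 over 18 alternatives), against 0.00 over all tested probe sets. Those 2 were the inhibitor genes ID3 and ID4.

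ID3, at its brightest probe set, had signals of 268, 265, 237 and 267 in vitro, against 155, 47.6, 89.3 and 60.5 in vivo. All in vitro arrays lay above all in vivo arrays. The fold was 3.02 and the log2 fold change 1.60 ± 0.30 (SE), just outside the threshold (limma adjusted p = 0.0521, unadjusted p = 8.89e-05). The adjusted p ran from 0.00406 to 0.219 over 18 alternatives and passed under 7 of them, among them quantile normalization (0.0298) and leaving out in vivo replicate 1 (0.00406). The second tested ID3 probe set was near background, with a log2 fold change of 0.64 ± 0.54 (SE, limma adjusted p = 0.724). The remaining ID3 probe set was above background on 0 of the 8 arrays.

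ID4 had signals of 208, 366, 279 and 259 in vitro, against 242, 109.9, 246 and 93.1 in vivo, at its brightest probe set. The groups overlapped, and the log2 fold change was 0.76 ± 0.31 (SE, limma adjusted p = 0.418). The other tested ID4 probe sets had 0.12 and 0.82, and neither passed. ID1 lay below the filter, at 19.3 ± 20.9 in vitro and 16.0 ± 8.19 in vivo (SD, n = 4 each).

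TCF3, which encodes the E proteins E12 and E47, averaged 1192 ± 134 in vitro and 1419 ± 461 in vivo (SD, n = 4 each) at its brightest probe set. Its log2 fold change there was -0.20 ± 0.22 (SE, limma adjusted p = 0.805), and its other 3 tested probe sets had -0.29, 0.02 and -1.11. TCF12, another E protein gene, had 0.08 and turned to -0.11 without in vivo replicate 3. The LIM cofactor gene LDB1 and the LMO family gene LMO3 had 0.35 and -0.41 and did not pass. LDB1 read 892, 905, 851 and 768 in vitro, all within the in vivo range of 444 to 969.

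**Figure D4:**
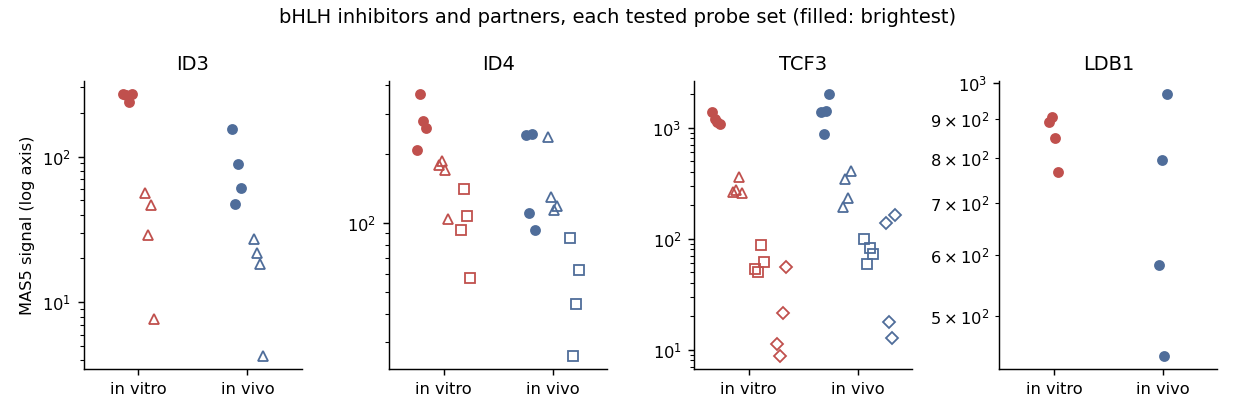
MAS5 signal (log axis) of each tested probe set of ID3, ID4, TCF3 and LDB1 on each array, in vitro left and in vivo right, with filled symbols for the brightest probe set of a gene. ID3 at its brightest probe set is the only one of those shown whose groups do not overlap, at 237 to 268 in vitro against 47.6 to 155 in vivo.

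Oocyte genes, many of them reported downstream of these factors in mice, made up a second list. All 18 genes of it on the array were above background on every array. Of these 18, 0 rose and 0 fell, 9 had a positive and 9 a negative log2 fold change, and the median was -0.03 (-0.11 to 0.07 over 18 alternatives). The egg coat gene ZP3, a target of FIGLA in mice, had -0.31 ± 0.18. BMP15, an oocyte growth factor, had 0.30, POU5F1 had 0.35, the receptor gene KIT had 0.27 and the kinase gene MOS had 0.00. The histone chaperone gene NPM2 had -0.38, and NLRP5, a maternal effect gene, had -1.03 ± 0.26 (SE, limma adjusted p = 0.193). NLRP5 was the 1 gene of this list with an unadjusted limma p under 0.05 (0.00142), against 10.3% of all tested probe sets. The groups did not overlap for NLRP5 (lower in vitro) or for BMP15 and RSPO2 (both higher in vitro), against 6.33% of all tested probe sets. The adjusted p of NLRP5 did not fall below 0.0823 under any of 18 alternatives. ZP2 and GDF9 were not analysed here.

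Of 18 tested genes of another list, other transcription regulators of oocytes, CTCFL rose and 17 did not pass, with a median log2 fold change of 0.09. CTCFL, a germ-line relative of CTCF, read 249.5, 275, 196 and 321 in vitro, against 26.7, 1.8, 80.3 and 32.3 in vivo. It was above background on 4 of 4 arrays in vitro and on 3 of 4 in vivo. Its log2 fold change was 2.98 ± 0.48 (SE, limma adjusted p = 0.0231). The size depends on what is added before the log, at 3.59 with the pseudocount of 1 and 2.32 with the median signal. Leaving out any 1 of the in vitro arrays gave limma adjusted p-values of 0.121, 0.109, 0.0650 and 0.104, for replicates 1 to 4. The limma adjusted p was 0.0899 with the pseudocount of 1 and 0.200 without the intensity trend.

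In mice, FIGLA, NOBOX, LHX8 and SOHLH1 belong to a set of factors, with TBPL2, STAT3, DYNLL1 and SUB1, that turns pluripotent cells into oocyte-like cells. DYNLL1, a dynein light chain gene, had a log2 fold change of -0.17. SUB1, a transcription coactivator gene, had 0.66 ± 0.42 (SE, limma adjusted p = 0.628) with signals of 1065, 946, 1014 and 403 in vitro, against 348, 735, 229.6 and 1100.0 in vivo. The in vivo range covered every in vitro array. STAT3 was above background on 0 of 4 arrays in vitro and 1 of 4 in vivo and was not tested, and TBPL2 was not analysed here. Others of this list with the smallest p-values were CREB1 (-0.53), the general transcription factor gene GTF2B (0.26) and SALL4 (0.32), none of which passed.

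**Figure D5:**
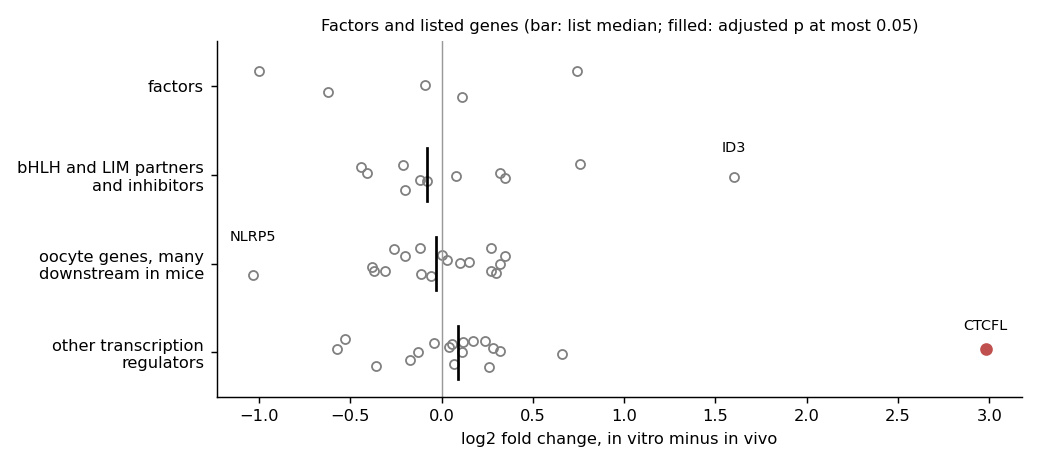
Log2 fold change, in vitro minus in vivo, of the 5 tested factors and of the tested genes of the 3 lists, 1 point per gene at its brightest probe set, with a bar at each list's median. CTCFL, filled, is the gene that passed at an adjusted p of 0.05, and ID3 lies at 1.60 without passing.

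The labelled cell type was checked against 13 oocyte markers on the array, of which 8 are also among the 18 oocyte genes above. The other 5 (BCL2L10, BTG4, DAZL, FBXO43 and YBX2) were above background on every array too. Of 18 granulosa and cumulus markers on the array, 14 to 15 were above background in vitro and 15 to 17 in vivo. Their summed signal was 22186 to 31327 in vitro and 23617 to 25992 in vivo. SERPINE2 alone averaged 12488 in vitro and 13703 in vivo, so the sum says little about the dimmer markers. Among those, INHBA averaged 1483.5 in vitro and 165 in vivo, and STAR 1181 and 191. Of 17 tested, INHBA and STAR rose and 15 did not pass. An unadjusted limma p under 0.05 was found for 4 of the 17, against 10.3% of all tested probe sets. These 4 were INHBA, STAR, HSD3B2 (2.28) and INHA (0.59), all with positive log2 fold changes. The other tested INHBA probe set had 3.18. Over the 17 the log2 fold change was positive for 7 and negative for 10, with a median of -0.12. NR5A1 was above background on no array. Of 9 theca and stroma markers, 6 to 7 were above background in vitro and 5 to 6 in vivo, with CYP17A1 on no array. Their summed signal was 625 to 1305 in vitro and 512 to 757 in vivo. Among 6 tested, 0 rose and 0 fell, and 3 had an unadjusted limma p under 0.05. The log2 fold change was positive for 4 of them and negative for 2. Of 7 blood and immune markers, 0 to 3 were above background in vitro and 4 in vivo, with S100A9 on no array. Their summed signal was 78.6 to 155 in vitro and 196 to 259.8 in vivo. Among 3 tested, 0 rose and 0 fell, and all 3 had a negative log2 fold change, with a median of -1.02. CD68 (means of 15.9 in vitro and 49.2 in vivo) and AIF1 (23.6 and 32.4) passed the signal filter through in vivo alone. A low in vitro value of CD68 and AIF1 came with that choice. HBB averaged 27.0 in vitro and 72.1 in vivo. The shared sign is therefore not read as support for a difference. The part of other cells in the values of the factors was not tested. The 2% trimmed mean signal was about 150.0 on each array, and between 49.9% and 60.9% of probe sets lay above background.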

How the data were processed

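Purified RNA from 4 oocytes per pool was turned into biotinylated cRNA in 2 amplification rounds for an Affymetrix macaque array of 1 colour, per the labels' protocols. The authors deposited linear intensity values made with MAS5 (version not given), per the submitters' processing notes. MAS5 subtracts background per probe set, so dim probe sets vary strongly, and amplification from the 3' end can lose signal far from that end.

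Gene symbols are those of the platform annotation, and all 5 factors were matched by identifier to RefSeq genes of T2T-MMU8v2.0. No coordinates are given. The 99 control probe sets were left out. The log2 of each signal plus 8.2, the 25th percentile of all signals, was used, so the fold changes of dim transcripts are understated. Probe sets with a mean signal above the 50th percentile (26378) were tested with limma 3.58.1 in R 4.3.3 (lmFit, then eBayes with trend), as in vitro minus in vivo, with Benjamini-Hochberg adjustment over all of them. The fit was tested on simulated data. Each listed gene is represented by its brightest tested probe set. The members, lists and tests were chosen with earlier results of these data known. Genes named from a list are those that passed, the 4 with the smallest unadjusted p, and 11 genes fixed for their role. Alternatives were other pseudocounts, filters, normalizations, variance models, array weights, a replicate block and each array left out. A filter on the mean log2 value was added after seeing the data. The number of arrays limits the precision.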

Additional observations from a re-analysis of the deposited data

Results flagged for a closer look

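Samples far from the rest of their group were sought by the gap of the highest or lowest array to its nearest neighbour, on the log2 scale, in 50 groups of 4 arrays. Chance marks about 1 in 20 such groups. None of the groups of the factors themselves was marked, and 3 groups of listed genes were. SUB1 read 403 on in vitro replicate 4, while the other in vitro arrays lay between 946 and 1065. NLRP5 read 793 on in vitro replicate 1, against 1221 to 1271 on the others. ID3 read 237 on in vitro replicate 3, against 265 to 268 on the others, a gap that stands out because those 3 arrays lay so close together.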

How the results depend on the processing

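The count of 0 called factors was the same under all 18 alternatives. The count of 39 called probe sets became 7 without the intensity trend and 88 with array weights, and it ran from 19 to 96 with 1 array left out (without in vivo replicate 4 it was 96, of which 44.8% were higher in vitro, against 66.7% of the 39). The count of called genes over the 3 lists was 1 (CTCFL). It was 0 with a pseudocount of 1 and without the intensity trend, and 2 (CTCFL and ID3) with the median signal as pseudocount, no filter, the upper-quarter filter, quantile normalization, median centring or array weights. With 1 array left out it ran from 0 to 2. The filter on the mean log2 value, added after seeing the data, gave 38 calls in all. Small values changed sign for FIGLA (-0.22 to 0.05 with 1 array left out), TCF12 (-0.11 to 0.32) and MOS (-0.08 to 0.05, -0.07 with quantile normalization and -0.01 with array weights), and for the list medians of the bHLH partners (-0.12 to 0.08 over all 18) and the oocyte genes (-0.11 to 0.07). The cause of these changes was not tested. With background at the highest control, SOHLH1 was above it on 3 arrays and NOBOX on 4. With background at the median control, both were above it on 8 arrays and the dimmer SOHLH2 probe set on 2. The replicate numbers do not pair the arrays by any label, and deviations of same-numbered arrays correlated between -0.0448 and 0.0110. A replicate block gave 44 calls, of which 0 were factors, and a limma adjusted p of 0.444 for LHX8. Depth of signal limits SOHLH1 and NOBOX most, since both lay near background.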
